A study of Mus musculus with 12 samples.

Results

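The TCF/LEF transcription factors, their co-activator and their co-repressors were followed across 12 RNA-seq libraries of mouse bone marrow LSK cells (Lin- Sca1+ cKit+), the compartment of haematopoietic stem cells and multipotent progenitors. The set consists of 10 genes chosen by symbol, out of 39017 in the count table: Tcf7, Lef1, Tcf7l1 and Tcf7l2 (the TCF/LEF factors), Ctnnb1 (β-catenin), Axin2, and Tle1, Tle2, Tle3 and Tle4 (the Groucho co-repressors). All 10 had enough counts to be tested. Lef1 had the fewest counts of the 10.

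The study set an active Notch1 (N1IC, the Notch1 intracellular domain expressed from the R26 locus) beside loss of Tcf7, in 4 groups of 3 libraries. NICD_TCFKO is labelled R26 N1IC lox/+ Tcf7 lox/lox Mx1Cre. NOTCHWT_TCFKO is labelled Tcf7 lox/lox Mx1Cre. NICD_TCFWT is labelled R26 N1IC lox/+ Mx1Cre. NOTCHWT_TCFWT is labelled wild type. All 4 groups had the background C57BL/6J; Sv/129 and an injection of poly(I:C) at 2 ug/g, which switches on the interferon-responsive Mx1Cre where it is carried. Mx1Cre acts in blood cells and in other interferon-responsive tissues, so recombination may also occur in other cells of the animal. In both NICD groups the LSK gate further required CD45.2 and eGFP, and effects of that gate and of N1IC cannot be told apart. Ages are not in the labels used here. The labels give replicates but do not say whether they are separate mice. In 3 groups the replicates differed in Xist and Y-linked transcripts and so were not all repeats of 1 animal; the NOTCHWT_TCFWT libraries were all Xist-high, and there the spread behind the p-values may be technical.

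TCF/LEF proteins share a DNA-binding HMG domain and recognise the same core motif. Bound to β-catenin, which accumulates when Wnt signalling stops its destruction, they activate genes, and bound to Groucho/TLE proteins they repress them. TCF-1, the product of Tcf7, is induced by Notch in early T cell progenitors and is needed for T lineage development, where LEF-1 overlaps with it in part. Axin2 is a scaffold of the β-catenin destruction complex and a widely used target gene of the Wnt pathway.

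Some libraries went against their labels, which bears on every direction given here. Tcf7 was highest in the libraries labelled NICD_TCFKO, in which it is labelled as deleted, and lowest in those labelled NOTCHWT_TCFKO. Dtx1, a Notch target gene, averaged 121 ± 51.3 CPM (counts scaled to a common library size by TMM) in NICD_TCFKO, 0.208 ± 0.189 CPM in NOTCHWT_TCFKO, 0.124 ± 0.0602 CPM in NICD_TCFWT and 85.4 ± 5.67 CPM in NOTCHWT_TCFWT (SD, n = 3 each). It was thus high in the libraries labelled wild type and near 0 in those labelled as carrying N1IC alone. Groups are called by their labels throughout, and every direction is one between libraries so labelled.

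The libraries held 30453271 to 43790674 counts. All 7 LSK markers had counts in every library, and their summed level was 1436 to 1920 CPM in NICD_TCFKO, 2069 to 3339 CPM in NOTCHWT_TCFKO, 2811 to 3220 CPM in NICD_TCFWT and 1740 to 2006 CPM in NOTCHWT_TCFWT. On average this was mostly Kit (644, 812, 787 and 789 CPM in these groups) and Cd34 (586, 1011, 1150 and 665 CPM). Ly6a, the gene of Sca1, did not follow the sum, at 102, 37.5, 73.1 and 123 CPM. Flt3 averaged 119, 445, 548 and 54.9 CPM. A list of 8 T cell markers summed to 362 to 952 CPM in NICD_TCFKO, 22.8 to 42.2 CPM in NOTCHWT_TCFKO, 28.5 to 48.6 CPM in NICD_TCFWT and 328 to 360 CPM in NOTCHWT_TCFWT. Of this list Trbc2 and Lck were high in both NICD_TCFKO and NOTCHWT_TCFWT. Cd3e, Cd3g and Cd3d averaged 19.5, 66.2 and 4.86 CPM in NICD_TCFKO and were at 0 or under 2 CPM in every library of the other groups, and Cd5 averaged 17.7 CPM in NICD_TCFKO and at most 2.87 CPM in another group. Cd28 and Cd2 did not follow the sum: Cd28 averaged 1.21 CPM in NICD_TCFKO, 2.69 CPM in NOTCHWT_TCFKO, 1.14 CPM in NICD_TCFWT and 0.0985 CPM in NOTCHWT_TCFWT, and Cd2 averaged 0.190 CPM in NICD_TCFKO and 0.352 CPM in NOTCHWT_TCFKO. Markers of granulocytes and monocytes (7 genes) summed to 357 to 1137 CPM in NICD_TCFKO, 1107 to 7823 CPM in NOTCHWT_TCFKO, 1302 to 5116 CPM in NICD_TCFWT and 109.9 to 185 CPM in NOTCHWT_TCFWT. Outside NOTCHWT_TCFWT this was on average mostly Mpo, at 435, 3792, 2697 and 23.5 CPM in these groups. Csf1r (85.5, 72.2, 35.0 and 67.6 CPM) and Itgam (53.4, 76.6, 37.7 and 54.5 CPM) did not follow it. S100a8 and S100a9 averaged 206 and 268 CPM in NOTCHWT_TCFKO but 0.989 and 1.75 CPM in NICD_TCFWT. Within NOTCHWT_TCFKO they ran from 5.84 to 593 CPM and from 4.23 to 792 CPM, so these means do not describe every library of that group. Macrophage markers (7 genes) summed to 307 to 441 CPM in NOTCHWT_TCFKO and to at most 37.9 CPM in any other library, while markers of NK and innate lymphoid cells (5 genes) summed to 814 to 1533 CPM in NOTCHWT_TCFWT and to at most 463.9 CPM in any other library. That sum was mostly Gzmb, which averaged 195 CPM in NICD_TCFKO, 1.86 CPM in NOTCHWT_TCFKO, 3.95 CPM in NICD_TCFWT and 1009 CPM in NOTCHWT_TCFWT. The NK receptor genes did not follow it: Klrb1c averaged 8.36, 2.48, 12.3 and 0.956 CPM in these groups and Ncr1 0.421, 0.416, 0.659 and 0.570 CPM. The library NOTCHWT_TCFKO 2 stood apart from its group in B cell markers (4 genes), at 51.8 CPM against 22.2 to 30.9 CPM in the other libraries. By Xist and 4 Y-linked genes the library NOTCHWT_TCFKO 1 held both Xist (2156 CPM) and Y-linked transcripts (153.9 CPM), NICD_TCFKO 1 was the only Y-positive library of its group, and all NOTCHWT_TCFWT libraries were Xist-high.

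Tcf7 (ENSMUSG00000000782, mm10 chr11:52252371-52283014, minus strand) differed more between libraries than the other genes of the set. The 3 libraries labelled NICD_TCFKO had 297, 896 and 615 CPM, with Tcf7 at 0.819, 2.76 and 0.267 CPM in NOTCHWT_TCFKO, at 5.05, 4.68 and 6.76 CPM in NICD_TCFWT and at 14.3, 10.5 and 19.6 CPM in NOTCHWT_TCFWT. No 2 groups overlapped. The order was NICD_TCFKO, NOTCHWT_TCFWT, NICD_TCFWT and NOTCHWT_TCFKO, from 603 ± 300 to 1.28 ± 1.31 CPM (SD, n = 3). In NOTCHWT_TCFKO the level rested on 31, 104 and 11 counts, low but not 0 in any library. Reads were counted over the whole gene, and since the position of the lox sites is not labelled, RNA from exons outside them may be included. The NICD_TCFKO libraries were also those with Cd3e and Cd3g, as given above; the part of T cells in the Tcf7 level was not tested.

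In NICD_TCFKO Tcf7 rose over each of the other groups. The log2 fold change was 6.78 ± 0.71 (SE) over NICD_TCFWT (edgeR quasi-likelihood test with Benjamini-Hochberg adjustment over 16024 genes, adjusted p = 0.000681), 8.89 ± 0.80 over NOTCHWT_TCFKO (edgeR adjusted p = 0.000141) and 5.34 ± 0.66 over NOTCHWT_TCFWT (edgeR adjusted p = 0.00276). Between the groups without the N1IC label it fell by 3.55 ± 0.68 on the log2 scale in NOTCHWT_TCFKO against NOTCHWT_TCFWT (edgeR adjusted p = 0.00603), and by 4.79 without the library NOTCHWT_TCFKO 2, which held the most Tcf7 of its group. The direction between the groups that differ in the Tcf7 label was thus opposite with and without the N1IC label. The interaction (the change of NICD_TCFKO over NICD_TCFWT minus that of NOTCHWT_TCFKO over NOTCHWT_TCFWT) was 10.32 ± 0.97 (edgeR adjusted p = 9.07e-05). The remaining neighbours in the order did not pass. NICD_TCFWT stood -1.43 ± 0.59 from NOTCHWT_TCFWT (edgeR adjusted p = 0.121), which passed when these groups alone were fitted (edgeR adjusted p = 0.00763) and without NOTCHWT_TCFKO 2 (edgeR adjusted p = 0.0489). NOTCHWT_TCFKO stood -2.11 ± 0.68 from NICD_TCFWT (edgeR adjusted p = 0.124; DESeq2 adjusted p = 0.0379). In bulk samples a lower count from fewer cells of a type and one from less RNA per cell cannot be told apart, which holds for every gene here.

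**Figure D1:**
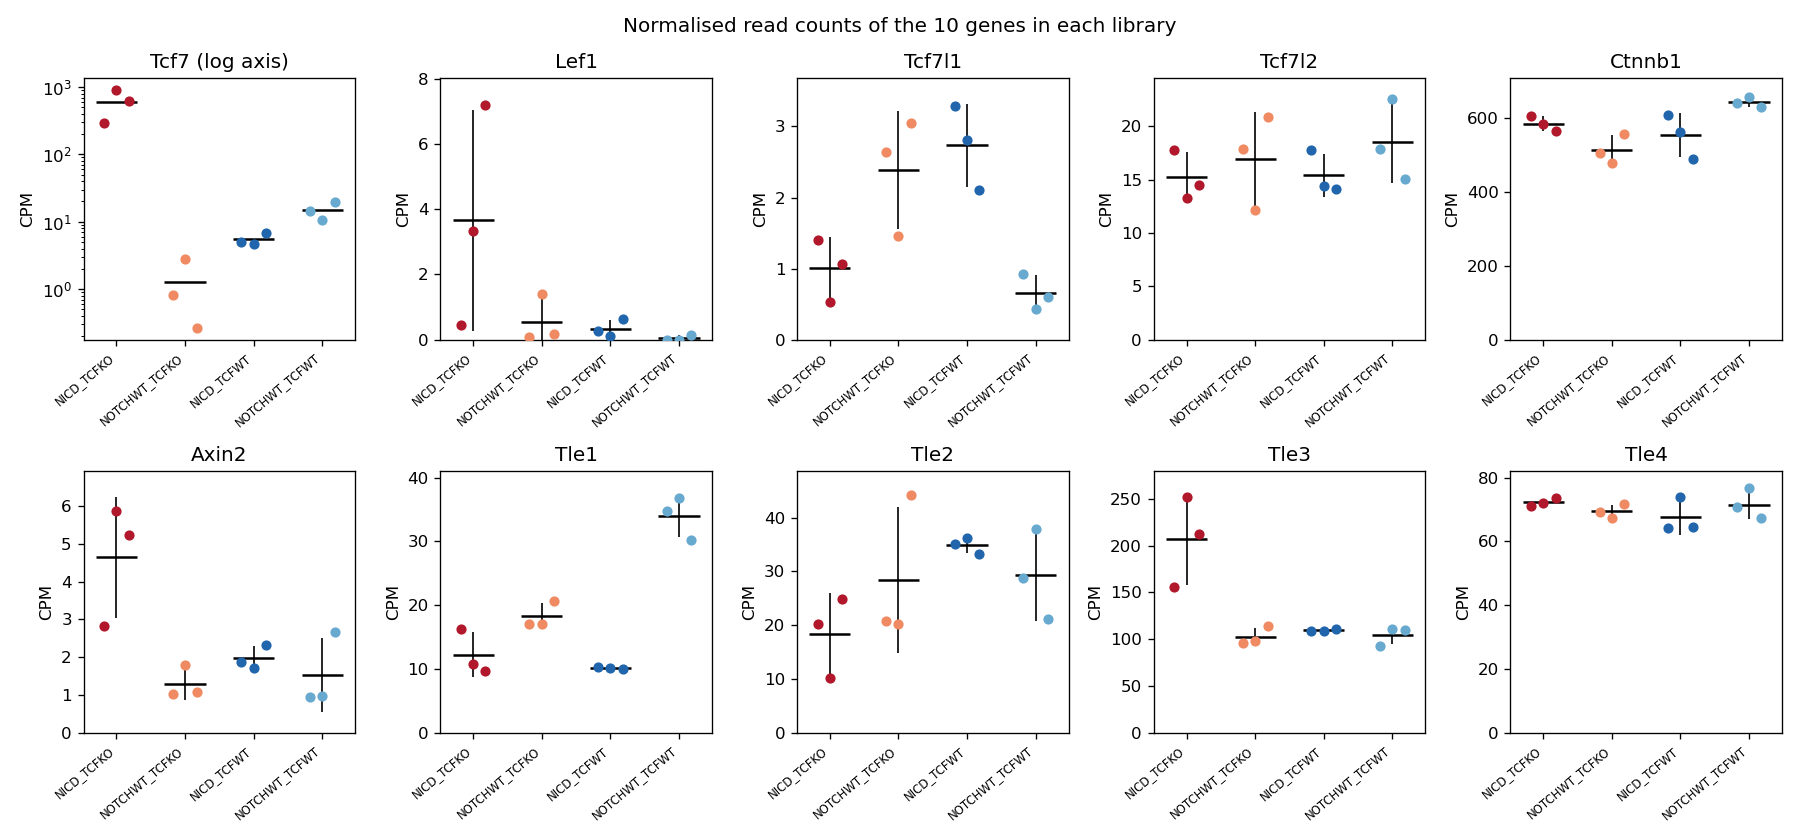
Normalised read counts (CPM, y axis; log axis for Tcf7 only) of the 10 genes in each library, with the 4 labelled groups on the x axis from NICD_TCFKO at the left to NOTCHWT_TCFWT at the right; points are libraries, horizontal bars the mean and vertical bars the SD (not drawn for Tcf7, and ended at 0). Tcf7 spans 0.267 to 896 CPM, whereas Tle4 stays between 64.3 and 76.6 CPM.

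Lef1 (ENSMUSG00000027985, mm10 chr3:131110471-131224356, plus strand), the closest relative of Tcf7 in T cells, had the lowest counts of the set. It was at 0.450, 3.34 and 7.20 CPM in NICD_TCFKO, at 0.0793, 1.41 and 0.170 CPM in NOTCHWT_TCFKO, at 0.271, 0.103 and 0.622 CPM in NICD_TCFWT and at 0, 0 and 0.140 CPM in NOTCHWT_TCFWT. All 3 NICD_TCFKO libraries lay above all 3 NOTCHWT_TCFWT libraries, and every other pair of groups overlapped. No comparison of Lef1 passed in edgeR over the 12 libraries. The nearest was NICD_TCFKO over NOTCHWT_TCFWT, a log2 fold change of 6.04 ± 1.59 (edgeR adjusted p = 0.0519) that rests on 6 counts in NOTCHWT_TCFWT. It passed in DESeq2 (adjusted p = 0.000189), and in edgeR with only genes of at least 1 CPM in 3 libraries (adjusted p = 0.0487) and without NICD_TCFKO 1 (adjusted p = 0.0290) or without NOTCHWT_TCFKO 2 (adjusted p = 0.0289). DESeq2 also called Lef1 higher in NICD_TCFKO over NICD_TCFWT (adjusted p = 0.0317; edgeR log2 fold change 3.45 ± 1.32) and in NOTCHWT_TCFKO over NOTCHWT_TCFWT (adjusted p = 0.0435). The library NOTCHWT_TCFKO 2 held 53 of the group's Lef1 counts, against 3 and 7 in the other libraries of that group. Without it the log2 fold change over NICD_TCFWT, 0.73 ± 1.28, became -1.38. That library also held the highest Tcf7, Cd3e (1.73 CPM) and Cd3g (1.89 CPM) of its group; the part of other cells in these values was not tested.

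Windows of 250 bases before annotated starts of Lef1 and Axin2, a pair of genes that were both highest in NICD_TCFKO, are given because both can be read for the motif of the factors measured here. Not every window of Lef1 is shown. The TCF/LEF core was searched on both strands in the form CTTTGA only, which reads TCAAAG on the opposite strand. The same was done for the core of RBPJ, the DNA-binding partner of Notch, which is TGGGAA and on the opposite strand reads TTCCCA. Neither motif contains the other. Matches are in capitals, all letters run 5′ to 3′ on the strand of the gene, and the sequences are from RefSeq on GRCm38.p6.
Lef1, upstream start, chr3:131110047-131110296 (plus strand): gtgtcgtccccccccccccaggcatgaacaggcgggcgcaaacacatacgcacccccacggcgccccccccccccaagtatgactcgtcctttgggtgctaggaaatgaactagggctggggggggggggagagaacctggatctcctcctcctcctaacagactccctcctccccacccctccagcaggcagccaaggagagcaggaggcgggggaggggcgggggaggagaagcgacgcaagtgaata
Lef1, intragenic start, chr3:131156044-131156293 (plus strand): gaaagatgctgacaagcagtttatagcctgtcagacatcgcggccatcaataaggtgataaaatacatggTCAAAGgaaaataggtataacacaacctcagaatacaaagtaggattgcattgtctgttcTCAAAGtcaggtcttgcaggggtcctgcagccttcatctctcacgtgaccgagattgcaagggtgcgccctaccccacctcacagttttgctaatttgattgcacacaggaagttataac
Axin2, chr11:108920099-108920348 (plus strand): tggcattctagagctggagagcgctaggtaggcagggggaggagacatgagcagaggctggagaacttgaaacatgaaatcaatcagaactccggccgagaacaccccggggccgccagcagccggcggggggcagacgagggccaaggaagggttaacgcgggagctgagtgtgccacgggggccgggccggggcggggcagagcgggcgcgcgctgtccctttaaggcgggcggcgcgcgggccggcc
The intragenic window of Lef1 shown held TCAAAG at 180 and 120 bases before that start, and the other windows shown held neither motif. The Lef1 windows not shown, chr3:131110073-131110322 and chr3:131112541-131112790, held neither motif, and the second of them is also intragenic. The windows of Tcf7 and Tle3, genes also highest in NICD_TCFKO, held neither motif and are not shown. All 10 genes had a window, 17 in all. The TCF/LEF core in the form searched was in 1 of the 17 and the RBPJ core in 1, at TTCCCA 55 bases before the start of Tcf7l1. Other forms of these cores were not counted. Of 32851 mouse windows of this length 13.8% held the TCF/LEF core and 21.6% the RBPJ core. A match is a string of letters in a window and was not set against binding.

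Tcf7l1 (ENSMUSG00000055799, mm10 chr6:72626378-72789254, minus strand), encoding TCF-3, which acts mainly as a repressor in stem cells, had another pattern. It was at 1.40, 0.533 and 1.07 CPM in NICD_TCFKO, at 2.64, 1.46 and 3.06 CPM in NOTCHWT_TCFKO, at 3.28, 2.80 and 2.11 CPM in NICD_TCFWT and at 0.923, 0.430 and 0.607 CPM in NOTCHWT_TCFWT. The groups labelled with N1IC alone or with Tcf7 deletion alone were both above NOTCHWT_TCFWT in every library, and both above NICD_TCFKO. Against NOTCHWT_TCFWT it rose by 2.06 ± 0.44 on the log2 scale in NICD_TCFWT (edgeR adjusted p = 0.00834) and by 1.86 ± 0.44 in NOTCHWT_TCFKO (edgeR adjusted p = 0.0122). The interaction was -3.31 ± 0.61 (edgeR adjusted p = 0.00262), and NICD_TCFKO overlapped with NOTCHWT_TCFWT. NICD_TCFKO stood -1.45 ± 0.43 from NICD_TCFWT (edgeR adjusted p = 0.0501), just outside the threshold of 0.05, and passed in DESeq2 (adjusted p = 0.00922) and limma-voom (adjusted p = 0.0330), and in edgeR without NICD_TCFKO 1, NOTCHWT_TCFKO 2 or NOTCHWT_TCFKO 3 (adjusted p = 0.0323, 0.0400 and 0.0491). Same-number libraries of these 2 groups varied together; with the replicate number as a block it passed over all 12 libraries (edgeR adjusted p = 0.0282) and did not in these 2 groups alone (edgeR adjusted p = 0.0635). It stood -1.25 ± 0.43 from NOTCHWT_TCFKO (edgeR adjusted p = 0.0651; DESeq2 adjusted p = 0.0223), which passed without NICD_TCFKO 1 or NOTCHWT_TCFKO 2 (edgeR adjusted p = 0.0440 and 0.0484), and 0.61 ± 0.43 from NOTCHWT_TCFWT (edgeR adjusted p = 0.457).

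Tcf7l2 (ENSMUSG00000024985, mm10 chr19:55741820-55933654, plus strand), encoding TCF-4, the family member best known from intestinal epithelium, passed in no comparison. Its means were 15.2 ± 2.33 CPM in NICD_TCFKO, 17.0 ± 4.39 CPM in NOTCHWT_TCFKO, 15.4 ± 2.03 CPM in NICD_TCFWT and 18.5 ± 3.78 CPM in NOTCHWT_TCFWT (SD, n = 3 each). Over the 12 libraries it ran from 12.2 to 22.6 CPM and every pair of groups overlapped.

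Levels of different genes were compared as CPM per kb of exon sequence (union of GENCODE M21 exons on mm10). The summed level of the 4 TCF/LEF genes was 232 ± 114 CPM per kb in NICD_TCFKO, 3.09 ± 0.16 in NOTCHWT_TCFKO, 4.59 ± 0.38 in NICD_TCFWT and 7.92 ± 1.34 in NOTCHWT_TCFWT (SD, n = 3 each). Tcf7 made up 98.7% ± 0.77 of the sum in NICD_TCFKO, 45.6% ± 7.24 in NICD_TCFWT and 70.1% ± 9.95 in NOTCHWT_TCFWT. In NOTCHWT_TCFKO its share was 10.3, 35.4 and 3.10% in the single libraries, and Tcf7l2 was the largest of the 4 in each, with 67.1, 46.7 and 72.5%. Tcf7l1 reached 19.5% ± 6.11 in NOTCHWT_TCFKO and 15.3% ± 3.52 in NICD_TCFWT, but was at 0.154% and 2.11% on average in NICD_TCFKO and NOTCHWT_TCFWT. Lef1 was under 6% in all 12 libraries.

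**Figure D2:**
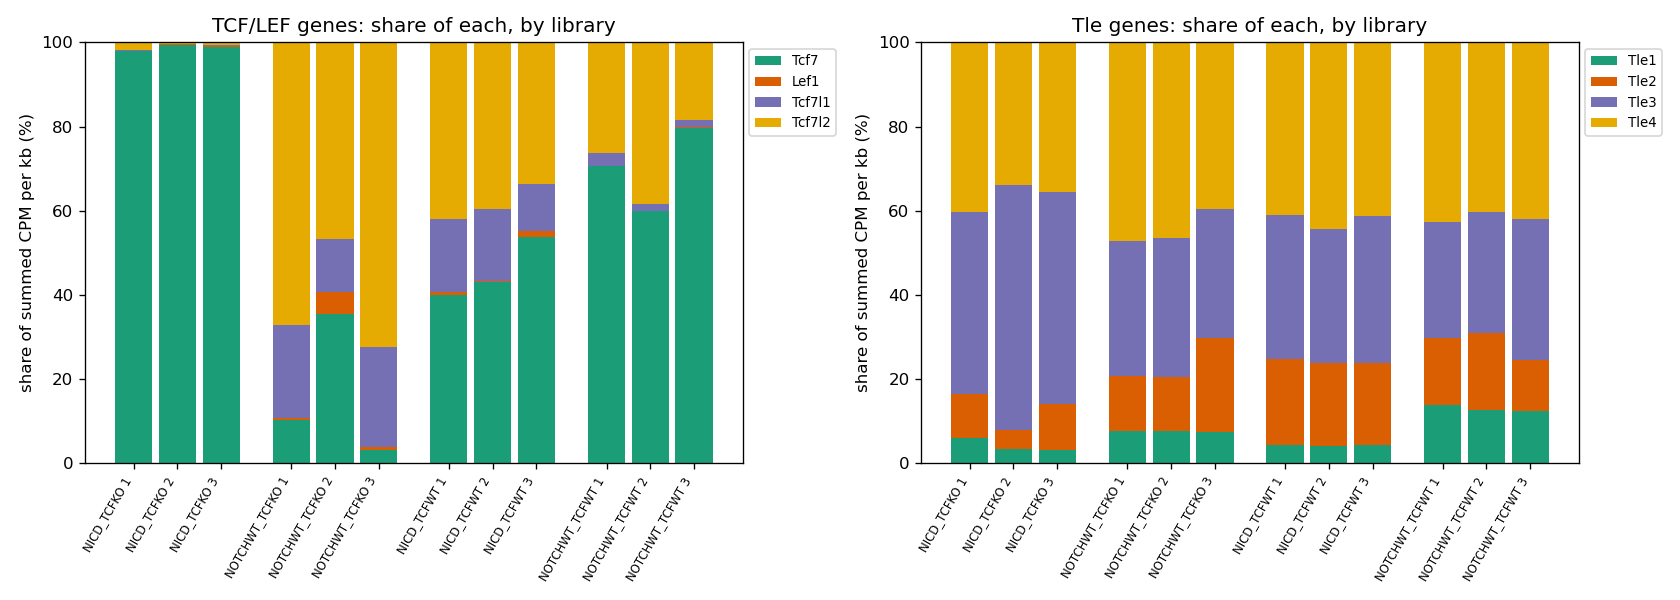
Share (%, y axis) of each gene in the summed CPM per kb of exon sequence of the TCF/LEF genes (left) and the Tle genes (right), 1 bar per library, from NICD_TCFKO at the left to NOTCHWT_TCFWT at the right. Tcf7 fills 97.9 to 99.4% of the TCF/LEF bars of NICD_TCFKO and 3.10 to 35.4% of those of NOTCHWT_TCFKO, and Tle3 is the largest share among the Tle genes in the NICD_TCFKO libraries only.

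Ctnnb1 (ENSMUSG00000006932, mm10 chr9:120929216-120960507, plus strand), which encodes β-catenin, was highly expressed in every library and varied by 1.38-fold between the lowest and the highest. It was at 608, 586 and 565 CPM in NICD_TCFKO, at 508, 479 and 559 CPM in NOTCHWT_TCFKO, at 608, 564 and 490 CPM in NICD_TCFWT and at 641, 659 and 632 CPM in NOTCHWT_TCFWT. Each NOTCHWT_TCFWT library exceeded every other library. Ctnnb1 fell by 0.32 ± 0.09 on the log2 scale in NOTCHWT_TCFKO against NOTCHWT_TCFWT (edgeR adjusted p = 0.0215), and its interaction was 0.40 ± 0.12 (edgeR adjusted p = 0.0294). Both are small and each was lost when any of 4 single libraries was left out: the adjusted p of the fall reached 0.0733 without NOTCHWT_TCFKO 1, and was also above 0.05 without NOTCHWT_TCFKO 2, NOTCHWT_TCFWT 1 or NOTCHWT_TCFWT 2. That of the interaction reached 0.0656 without NOTCHWT_TCFKO 1, and was also above 0.05 without NICD_TCFKO 1, NOTCHWT_TCFWT 1 or NOTCHWT_TCFWT 2 (edgeR). Ctnnb1 shares 759 bases of exon with Ulk4 on the opposite strand, and whether counting used strand is not given. Ulk4 had 15 to 72 counts. Whether Ctnnb1 lost reads in the shared bases was not tested. The level of Tcf7 per kb was 96.7, 303 and 215% of that of Ctnnb1 in NICD_TCFKO, 0.319, 1.14 and 0.0945% in NOTCHWT_TCFKO, 1.64, 1.64 and 2.73% in NICD_TCFWT and 4.42, 3.15 and 6.12% in NOTCHWT_TCFWT.

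Axin2 (ENSMUSG00000000142, mm10 chr11:108920349-108950783, plus strand) was low throughout and highest in NICD_TCFKO. It was at 2.83, 5.86 and 5.23 CPM there, at 1.03, 1.78 and 1.07 CPM in NOTCHWT_TCFKO, at 1.87, 1.72 and 2.33 CPM in NICD_TCFWT and at 0.952, 0.959 and 2.66 CPM in NOTCHWT_TCFWT. All 3 NICD_TCFKO libraries lay above the other 9, by a small margin for NICD_TCFKO 1. Axin2 rose by 1.84 ± 0.45 on the log2 scale over NOTCHWT_TCFKO (edgeR adjusted p = 0.0185), a call lost without NICD_TCFKO 2 (0.0642), NICD_TCFKO 3 (0.0552) or NOTCHWT_TCFKO 1 (0.0745, edgeR adjusted p). It stood 1.23 ± 0.44 above NICD_TCFWT (edgeR adjusted p = 0.0934; DESeq2 adjusted p = 0.0402) and 1.60 ± 0.45 above NOTCHWT_TCFWT (edgeR adjusted p = 0.0602; DESeq2 adjusted p = 0.00793). Without NOTCHWT_TCFWT 3, the library highest in Axin2 of its group, both passed (edgeR adjusted p = 0.0423 and 0.0231), and the second also passed without NICD_TCFKO 1 (edgeR adjusted p = 0.0354). The other 3 groups did not separate from each other, with log2 differences of 0.37 ± 0.44 (NICD_TCFWT over NOTCHWT_TCFWT), -0.24 ± 0.44 (NOTCHWT_TCFKO over NOTCHWT_TCFWT) and -0.61 ± 0.44 (NOTCHWT_TCFKO over NICD_TCFWT).

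Among the Groucho genes, Tle3 (ENSMUSG00000032280, mm10 chr9:61372366-61418497, plus strand) stood apart in NICD_TCFKO. It was at 156, 252 and 213 CPM there, at 96.2, 97.9 and 114 CPM in NOTCHWT_TCFKO, at 109, 109 and 111 CPM in NICD_TCFWT and at 92.8, 111 and 109 CPM in NOTCHWT_TCFWT. Every NICD_TCFKO library was above all other libraries, and the other 3 groups overlapped. Tle3 rose by 0.91 ± 0.15 on the log2 scale over NICD_TCFWT (edgeR adjusted p = 0.00352), by 1.01 ± 0.15 over NOTCHWT_TCFKO (edgeR adjusted p = 0.00137) and by 0.98 ± 0.15 over NOTCHWT_TCFWT (edgeR adjusted p = 0.00465). The interaction was 0.94 ± 0.21 (edgeR adjusted p = 0.00708). These 4 calls held in every alternative, each left-out library included.

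Tle1 (ENSMUSG00000008305, mm10 chr4:72117142-72200919, minus strand), a close paralogue of the others that also works with factors outside the Wnt pathway, was highest in NOTCHWT_TCFWT. It was at 16.3, 10.8 and 9.61 CPM in NICD_TCFKO, at 17.1, 17.0 and 20.6 CPM in NOTCHWT_TCFKO, at 10.3, 10.2 and 9.93 CPM in NICD_TCFWT and at 34.8, 36.7 and 30.3 CPM in NOTCHWT_TCFWT. NOTCHWT_TCFWT overlapped with no other group, and NICD_TCFKO overlapped with NICD_TCFWT only. Against NOTCHWT_TCFWT, Tle1 fell by 1.47 ± 0.18 on the log2 scale in NICD_TCFKO (edgeR adjusted p = 0.00169), by 0.89 ± 0.18 in NOTCHWT_TCFKO (edgeR adjusted p = 0.00544) and by 1.75 ± 0.18 in NICD_TCFWT (edgeR adjusted p = 0.000159). These 3 comparisons share the NOTCHWT_TCFWT libraries. The interaction was 1.17 ± 0.25 (edgeR adjusted p = 0.00623): Tle1 was lower in both singly labelled groups, and NICD_TCFKO stood 0.27 ± 0.18 from NICD_TCFWT (edgeR adjusted p = 0.338). Smaller differences were less stable. Tle1 fell by 0.58 ± 0.18 in NICD_TCFKO against NOTCHWT_TCFKO (edgeR adjusted p = 0.0463), a call that held without NICD_TCFKO 1 and was lost when any 1 of the other 11 libraries was left out, and rose by 0.85 ± 0.18 in NOTCHWT_TCFKO over NICD_TCFWT (edgeR adjusted p = 0.0322), lost when any 1 library of NICD_TCFWT, NOTCHWT_TCFKO 1, NOTCHWT_TCFKO 2 or NOTCHWT_TCFWT 1 was left out. The NOTCHWT_TCFWT libraries, highest in Tle1, also had the highest Gzmb, but the lowest Klrb1c of the 4 groups; the part of NK and innate lymphoid cells in the level of Tle1 was not tested.

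Tle2 (ENSMUSG00000034771, mm10 chr10:81574561-81590845, plus strand) varied mostly within groups. It was at 20.2, 10.2 and 24.9 CPM in NICD_TCFKO, at 20.8, 20.2 and 44.1 CPM in NOTCHWT_TCFKO, at 35.1, 36.3 and 33.3 CPM in NICD_TCFWT and at 28.7, 37.9 and 21.1 CPM in NOTCHWT_TCFWT. NICD_TCFKO lay below NICD_TCFWT in every library, at a log2 difference of -0.92 ± 0.37 that did not pass (edgeR adjusted p = 0.135; DESeq2 adjusted p = 0.0466), and every other pair overlapped. Tle4 (ENSMUSG00000024642, mm10 chr19:14448150-14598051, minus strand) varied least of the 10 genes. It stayed between 64.3 and 76.6 CPM in all 12 libraries, 1.19-fold from lowest to highest, and its log2 fold changes between groups ran from -0.08 ± 0.07 to 0.09 ± 0.07 with none called.

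Per kb the 4 Tle genes summed to 34.8 ± 3.35 CPM in NICD_TCFKO, 27.6 ± 3.60 in NOTCHWT_TCFKO, 28.0 ± 1.12 in NICD_TCFWT and 30.1 ± 2.80 in NOTCHWT_TCFWT (SD, n = 3 each). Tle3 and Tle4 together held most of that sum in every library. Tle3 made up 50.6% ± 7.57 in NICD_TCFKO, 32.0% ± 1.18 in NOTCHWT_TCFKO, 33.6% ± 1.57 in NICD_TCFWT and 29.9% ± 3.15 in NOTCHWT_TCFWT. The ratio of Tle3 to Tle1 per kb, taken within each library, was 7.13, 17.5 and 16.5 in NICD_TCFKO, 4.21, 4.29 and 4.13 in NOTCHWT_TCFKO, 7.94, 8.02 and 8.38 in NICD_TCFWT and 2.00, 2.27 and 2.70 in NOTCHWT_TCFWT. NOTCHWT_TCFWT had the lowest ratios and did not overlap with any other group. NICD_TCFKO overlapped with NICD_TCFWT through the library NICD_TCFKO 1.

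**Figure D3:**
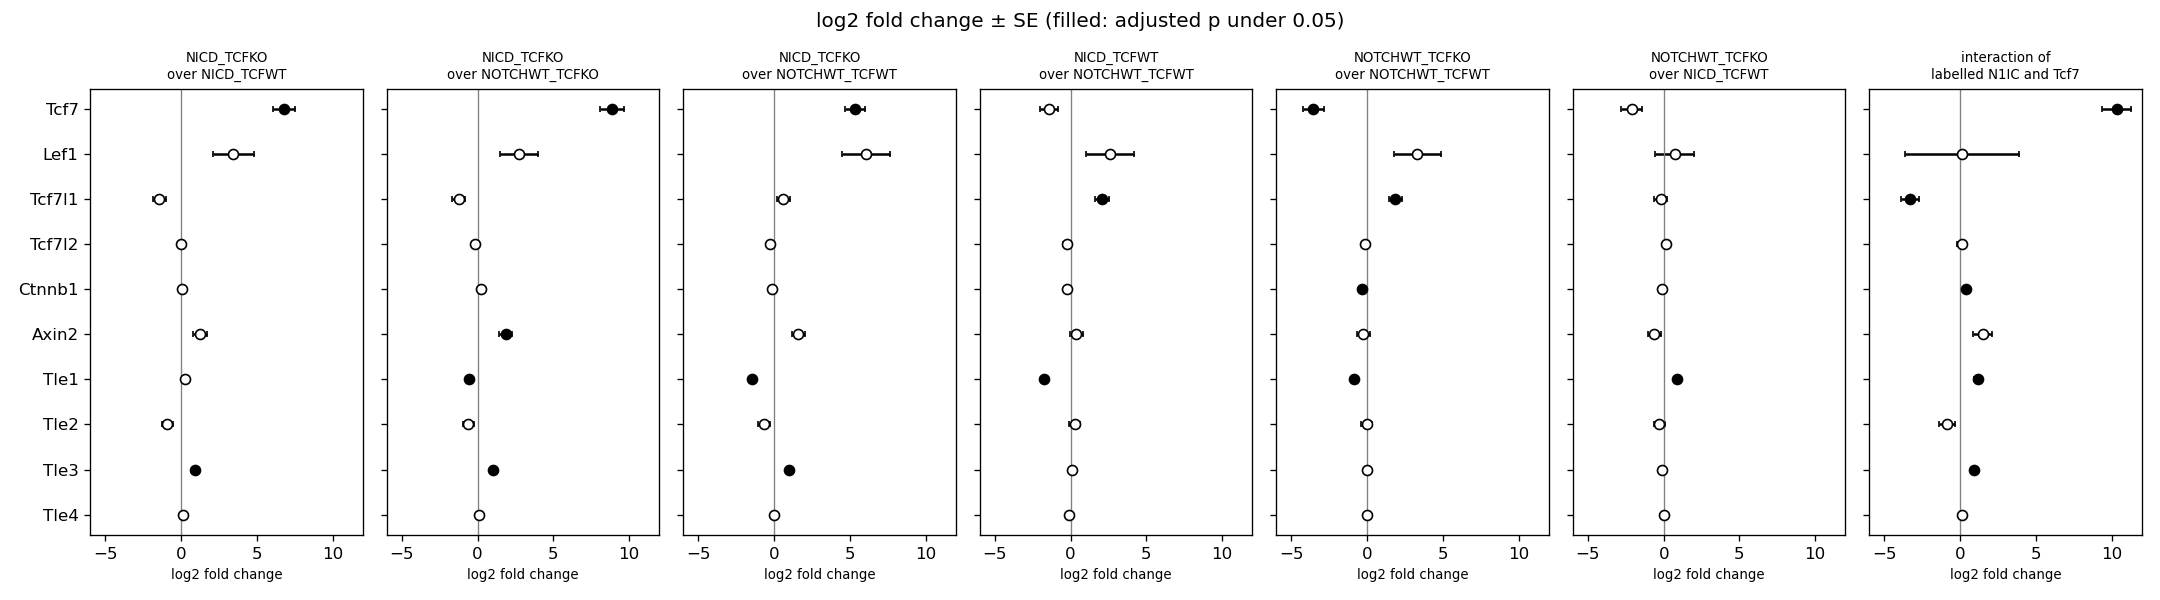
log2 fold change (x axis) of the 10 genes (rows) in the 6 comparisons of groups and in the interaction; points are the fitted values, bars the SE, and filled points have an edgeR adjusted p under 0.05. Tcf7 runs from -3.55 to 8.89 between groups, and Tle4 and Tcf7l2 are open in all 7 panels.

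Taken by comparison, 2 of the 10 genes were called in NICD_TCFKO over NICD_TCFWT, Tcf7 and Tle3, both higher, where 12.4% of all tested genes were called, 7.25% higher and 5.15% lower. In NICD_TCFKO over NOTCHWT_TCFKO 4 were called, with Tcf7, Axin2 and Tle3 higher and Tle1 lower, against 18.4% of all genes, 10.3% higher and 8.06% lower. In NICD_TCFKO over NOTCHWT_TCFWT 3 were called, with Tcf7 and Tle3 higher and Tle1 lower, against 6.3% of all genes, 4.01% higher and 2.3% lower. NICD_TCFWT over NOTCHWT_TCFWT gave 2 calls, Tcf7l1 higher and Tle1 lower, against 20.4% of all genes, 10.6% higher and 9.75% lower. NOTCHWT_TCFKO over NOTCHWT_TCFWT gave 4, Tcf7l1 higher and Tcf7, Ctnnb1 and Tle1 lower, against 21.3%, 10.8% higher and 10.5% lower. NOTCHWT_TCFKO over NICD_TCFWT gave 1, Tle1, which was higher, against 2.87%, 1.34% higher and 1.54% lower. In the interaction 5 were called, with Tcf7, Ctnnb1, Tle1 and Tle3 above 0 and Tcf7l1 below, against 27.4% of all genes, 13.8% above and 13.5% below. With 10 genes, counts of 1 to 5 are not read as more or fewer than these shares. The median log2 fold change of the 10 ran from -0.10 to 0.31 over the 7 comparisons, beside -0.01 to 0.01 for all tested genes. The comparisons share groups and are not independent of each other.

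Within NICD_TCFKO the library NICD_TCFKO 1 was the lowest of its group for Tcf7 (297 CPM), Lef1 (0.450 CPM), Axin2 (2.83 CPM) and Tle3 (156 CPM) and the highest for Tle1 (16.3 CPM) and Tcf7l1 (1.40 CPM). The same library had the lowest T cell marker sum of its group, 362 CPM beside 952 and 751 CPM, the highest LSK marker sum, 1920 CPM beside 1436 and 1557 CPM, and was the Y-positive one. The part of these differences in the gene levels was not tested. Over the 12 libraries Pearson's r of log2 CPM was 0.863 for Lef1 and Axin2, 0.859 for Axin2 and Tle3, 0.844 for Tcf7 and Tle3 and 0.820 for Tcf7 and Axin2, and was lowest for Lef1 and Tle1, at -0.687. These are descriptions over libraries that fall into groups, with NICD_TCFKO at one end, and carry no p. The 5 genes whose log2 CPM was most like that of Tcf7, out of 10813 compared, were Cog8 (r = 0.970), Skap1 (0.960), Ipcef1 (0.954), Adgrg5 (0.953) and Itgax (0.952).

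**Figure D4:**
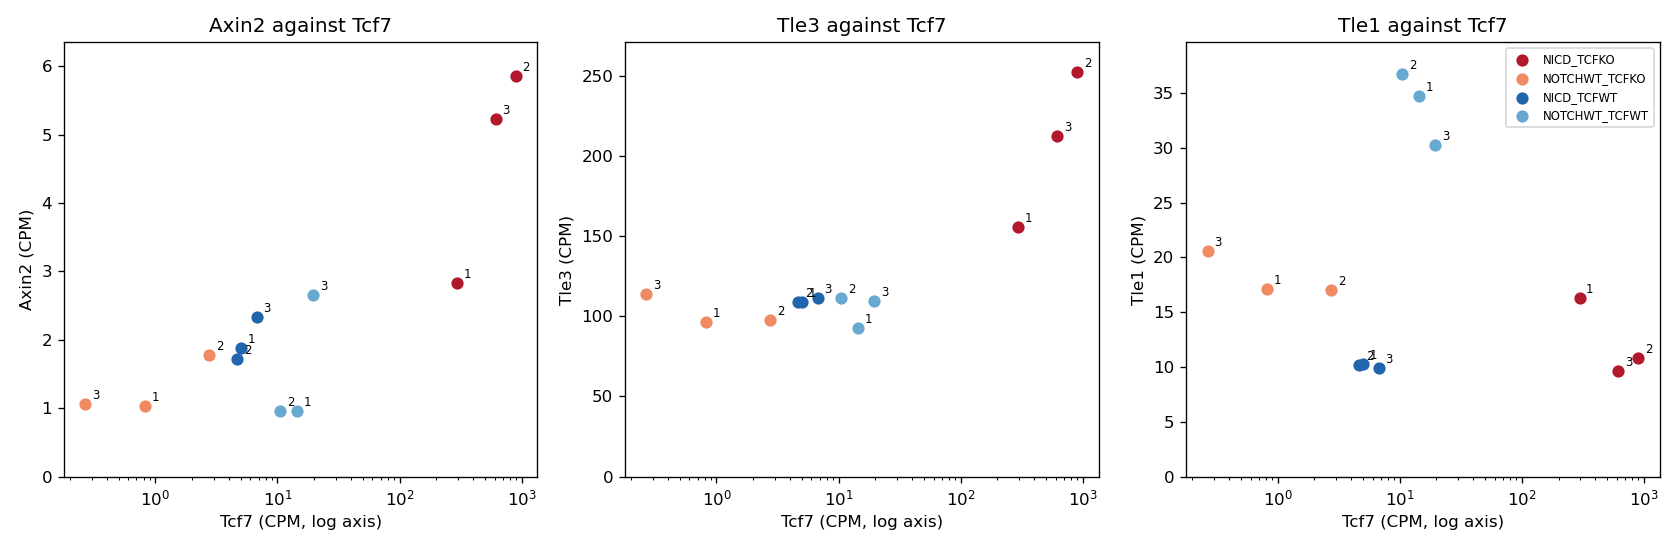
Axin2, Tle3 and Tle1 (CPM, y axes) against Tcf7 (CPM, log x axis) in the 12 libraries, coloured by group and numbered by replicate. The 3 NICD_TCFKO libraries lie at the right of every panel and are highest for Axin2 and Tle3, while Tle1 is highest in NOTCHWT_TCFWT, at 10.5 to 19.6 CPM of Tcf7.

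T lineage genes reported to depend on TCF-1 in early T cells were on average highest in NICD_TCFKO, as was Tcf7. Bcl11b averaged 66.3 ± 42.2 CPM in NICD_TCFKO and 0.354 ± 0.546, 0.489 ± 0.125 and 0.379 ± 0.330 CPM in NOTCHWT_TCFKO, NICD_TCFWT and NOTCHWT_TCFWT, and Il2ra 802 ± 438 CPM in NICD_TCFKO and 0.712 ± 0.993, 0.256 ± 0.128 and 1.90 ± 1.29 CPM in these groups (SD, n = 3 each). Gata3, Rag1 and Thy1 were not confined to NICD_TCFKO. In the same order of the other groups Gata3 averaged 10.4, 11.4 and 14.9 CPM, Rag1 8.18, 4.14 and 9.24 CPM, and Thy1 10.3, 16.9 and 45.8 CPM. Of the 7 genes listed (Gata3, Bcl11b, Il2ra, Cd3g, Cd3e, Rag1 and Thy1) all 7 were called higher in NICD_TCFKO than in NICD_TCFWT and in NOTCHWT_TCFWT, and 6 than in NOTCHWT_TCFKO (edgeR adjusted p of Cd3e 0.0549), where 7.25, 4.01 and 10.3% of all tested genes were called higher. With the replicate block in NICD_TCFKO and NICD_TCFWT alone, Cd3e, Rag1 and Thy1 lost their call between these groups (edgeR adjusted p = 0.0592, 0.0993 and 0.0565). Gata3 and Il2ra kept all 3 calls without any 1 library, whereas Bcl11b, Cd3g, Cd3e, Rag1 and Thy1 each lost at least 1, with the highest edgeR adjusted p at 0.0590, 0.108, 0.143, 0.137 and 0.0765. Cd3e and Cd3g are also in the list of T cell markers given above. Cd3e had 6 and 9 counts in all in NICD_TCFWT and NOTCHWT_TCFWT, and Cd3g 0 and 7. These 2 genes passed the count filter only through NICD_TCFKO, so their direction was set in advance. The 7 genes were listed with earlier results of these data known. The counts of calls are thus no test of a link to TCF-1. Hes1 and Nrarp, like Dtx1 targets of Notch, were higher in NICD_TCFKO (158 and 68.8 CPM) and NOTCHWT_TCFWT (177 and 114 CPM) but also had counts in NOTCHWT_TCFKO (7.67 and 5.24 CPM) and NICD_TCFWT (4.54 and 6.15 CPM). NICD_TCFKO and NOTCHWT_TCFWT did not differ in Dtx1 beyond the spread, at a log2 fold change of 0.50 ± 0.34 (edgeR adjusted p = 0.443), or in Hes1, at -0.17 ± 0.68 (edgeR adjusted p = 0.926). Nrarp, a feedback inhibitor of Notch, fell by 0.73 ± 0.14 in NICD_TCFKO (edgeR adjusted p = 0.0139), lost without NICD_TCFKO 3 or NOTCHWT_TCFWT 1 (highest edgeR adjusted p = 0.0592). Tcf7 differed between the same groups by 5.34 on the log2 scale.

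The rest of the Wnt/β-catenin pathway was read from a list of 81 genes, of which 62 were tested. In NICD_TCFKO over NICD_TCFWT 7 were called higher and 5 lower, 19.4% of the list beside 12.4% of all tested genes. Myc, a growth regulator and a Wnt target in gut, fell by 0.60 ± 0.11 on the log2 scale (266 CPM in NICD_TCFKO, 404 CPM in NICD_TCFWT; edgeR adjusted p = 0.00604), and Tnks2, a tankyrase that marks Axin for destruction, rose by 0.43 ± 0.08 (edgeR adjusted p = 0.00603). In NICD_TCFKO over NOTCHWT_TCFKO 4 were called higher and 5 lower, 14.5% of the list beside 18.4% of all genes. Wnt5b, a ligand, rose by 2.20 ± 0.44 (1.35 CPM in NICD_TCFKO, 0.291 CPM in NOTCHWT_TCFKO; edgeR adjusted p = 0.00765) and Fzd7, a receptor, fell by 1.07 ± 0.24 (10.3 CPM in NICD_TCFKO, 21.6 CPM in NOTCHWT_TCFKO; edgeR adjusted p = 0.0121). In NICD_TCFKO over NOTCHWT_TCFWT 3 were called higher and 2 lower, 8.06% of the list beside 6.3% of all genes, with Wnt5b higher by 3.62 ± 0.49 (1.35 CPM in NICD_TCFKO, 0.111 CPM in NOTCHWT_TCFWT; edgeR adjusted p = 0.0027). These counts moved with the fit and with single libraries. DESeq2 called 19, 14 and 12 genes in these 3 comparisons, against 12, 9 and 5 in edgeR. Fits of the compared groups alone gave 7, 4 and 4, and the replicate block gave 7 in the first over all 12 libraries and 8 in the compared groups alone. The first was 3 to 7 when any 1 library of NICD_TCFWT, NICD_TCFKO 2 or 3, or NOTCHWT_TCFWT 1 was left out. The second was 3 or 4 when NICD_TCFKO 2 or 3 or NOTCHWT_TCFKO 1 or 2 was left out. The third was 1 to 3 when any 1 library of NOTCHWT_TCFWT or NICD_TCFKO 3 was left out. Of 6 target genes tested, 0 were called higher in any of the 3 comparisons. Called lower were 3 over NICD_TCFWT (Myc, Ccnd1 and Lgr5), 2 over NOTCHWT_TCFKO and 1 over NOTCHWT_TCFWT. Of all tested genes 7.25, 10.3 and 4.01% were called higher and 5.15, 8.06 and 2.3% lower. Without 1 library 0 were called higher, and the lower calls were 1 to 3, 0 to 2 and 0 to 1. Axin2, highest in NICD_TCFKO, is not on this list.

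In NICD_TCFWT over NOTCHWT_TCFWT 14 were called higher and 8 lower, 35.5% of the list beside 20.4% of all genes, and in NOTCHWT_TCFKO over NOTCHWT_TCFWT 7 higher and 9 lower, 25.8% beside 21.3%. Of all genes 10.6% were called higher and 9.75% lower in the first, and 10.8% and 10.5% in the second, which are also the shares to set beside the counts of target genes, receptors and transducers that follow. Of 6 target genes tested, 3 were called higher and 1 lower in NICD_TCFWT, and 2 higher and 1 lower in NOTCHWT_TCFKO. Without 1 library the higher calls of target genes were 1 to 4 and 0 to 2. Myc rose by 0.57 ± 0.11 in NICD_TCFWT (404 CPM, against 272 CPM in NOTCHWT_TCFWT; edgeR adjusted p = 0.00444), whereas Cd44, an adhesion receptor on the same list of target genes, fell by 0.47 ± 0.07 (236 CPM, against 327 CPM in NOTCHWT_TCFWT; edgeR adjusted p = 0.000953). Of 14 receptors tested, 6 were called higher and 1 lower in NICD_TCFWT, and 3 higher and 1 lower in NOTCHWT_TCFKO; without 1 library the higher calls were 3 to 6 and 2 to 4. Fzd4 rose by 2.99 ± 0.59 in NICD_TCFWT (1.54 CPM, against 0.187 CPM in NOTCHWT_TCFWT; edgeR adjusted p = 0.00554) and by 3.99 ± 0.61 in NOTCHWT_TCFKO (3.07 CPM; edgeR adjusted p = 0.00115), and Fzd9 rose by 3.73 ± 0.79 and 3.22 ± 0.79 in these groups (edgeR adjusted p = 0.00811 and 0.0145). Ror2, a Wnt receptor, rose by 5.0 ± 1.11 in NICD_TCFWT (1.91 CPM, against 6 counts in all in NOTCHWT_TCFWT; edgeR adjusted p = 0.0105), and the co-receptor Lrp6 fell by 0.42 ± 0.08 (95.8 CPM, against 128 CPM in NOTCHWT_TCFWT; edgeR adjusted p = 0.0050). Dkk3, of the Dickkopf family of secreted Wnt regulators, fell by 3.06 ± 0.69 in NICD_TCFWT and by 3.12 ± 0.70 in NOTCHWT_TCFKO (edgeR adjusted p = 0.0112 and 0.00935), at 0.203, 0.194 and 1.72 CPM in NICD_TCFWT, NOTCHWT_TCFKO and NOTCHWT_TCFWT. Of 14 cytoplasmic transducers and destruction complex genes, 4 were called lower in NICD_TCFWT and 5 in NOTCHWT_TCFKO, with none higher, in edgeR; without 1 library the lower calls were 1 to 5 and 0 to 6, with none higher. Gsk3b, the kinase that marks β-catenin for destruction, fell by 0.37 ± 0.06 in NICD_TCFWT (edgeR adjusted p = 0.00252) and by 0.26 ± 0.06 in NOTCHWT_TCFKO (edgeR adjusted p = 0.0137), the second lost without NOTCHWT_TCFKO 1, NOTCHWT_TCFWT 1 or NOTCHWT_TCFWT 2 (highest edgeR adjusted p = 0.0736). In NOTCHWT_TCFKO over NICD_TCFWT edgeR called 0 of the 62, with 13 at an unadjusted p under 0.05, DESeq2 called 4 and limma-voom 0; edgeR called 1 in these 2 groups alone and 7 without NOTCHWT_TCFKO 3. The count of NICD_TCFWT over NOTCHWT_TCFWT fell to 12 without NOTCHWT_TCFWT 1 and to 14 without NICD_TCFWT 1. That of NOTCHWT_TCFKO over NOTCHWT_TCFWT fell to 6 without NOTCHWT_TCFKO 1, NOTCHWT_TCFWT 1 or NOTCHWT_TCFWT 2, and to 9 without NOTCHWT_TCFKO 2; it was 8 with the replicate block (4 higher, 4 lower) and 7 in these 2 groups alone (6 higher, 1 lower).

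In the interaction 11 genes of this list were above 0 and 11 below among those called, 35.5% of the list beside 27.4% of all genes (13.8% above and 13.5% below). Those with the smallest p were Gsk3b (0.50 ± 0.09), Tnks2 (0.55 ± 0.11), Lrp6 (0.54 ± 0.12) and Dkk3 (4.24 ± 0.97) above 0, and Fzd4 (-4.92 ± 0.80), Myc (-0.94 ± 0.15), Fzd9 (-4.84 ± 1.05) and Ccnd1 (-3.05 ± 0.65), a cyclin, below 0, with edgeR adjusted p from 0.00125 to 0.00828. Of 6 target genes tested, 1 was called above 0 and 4 below, and without 1 library 0 to 1 above and 4 below. The genes of this list given with their fold changes are those that kept their call without any 1 library, apart from Gsk3b in NOTCHWT_TCFKO; they were picked for this after their values were seen.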

How the data were processed

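RNA-seq of sorted LSK cells was available for 12 libraries, made per the labels' protocols from PicoPure RNA with TruSeq and Nextera XT kits and read as single-end 75 nt on a NextSeq, all in batch 1. The authors deposited raw read counts per gene (39017 genes, 15330 with no count), whose 12 single-library files equal the series table. The submitters' processing notes name the mm10 build, featureCounts 1.4.4, HISAT2, cutadapt 1.9.1, bcl2fastq 2.17, limma and edgeR 3.28.0; the annotation and the use of strand in counting are not given in the sources used here. Where overlapping genes on the opposite strand share exons, their reads cannot be told apart. Besides Ctnnb1, Lef1 shares 1208 bases of exon with Gm43352 and Tcf7l1 shares 179 with Gm15401, both on the opposite strand. Gm43352 is not in the count table, and Gm15401 had 0 to 15 counts. The part of these overlaps in the low counts of Lef1 and Tcf7l1 was not tested. The authors' normalised table was not used.

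Counts were tested in edgeR 4.0.16 (R 4.3.3) with TMM scaling, filterByExpr, a robust quasi-likelihood fit of 1 mean per group over all 12 libraries, and Benjamini-Hochberg adjustment over 16024 genes, with calls at an adjusted p under 0.05. Tested genes held 99.9% of the reads in the library where they held least, and the common biological coefficient of variation was 0.299. CPM used TMM-scaled library sizes, and 3 counts in the shallowest library equal 0.0985 CPM. The fit was tested on simulated data. All 10 genes are named. From the Wnt pathway list the rule named up to 4 genes per direction with the smallest p and at least 1 CPM in the higher group. Likeness to Tcf7 was ranked over genes with at least 5 CPM in some group. The members and lists were chosen with earlier results of these data known. Alternatives were RLE scaling, other low-count filters, DESeq2 1.42.0, limma-voom 3.58.1, fits of the groups compared alone, a replicate block, and each library left out. Replicate numbers were held to pair 2 groups where every same-number pair of libraries had r over 0.1 in their deviations from the group means, which was so for NICD_TCFKO and NICD_TCFWT only (r = 0.314, 0.100 and 0.451); the labels do not say what the numbers mark. The block in these 2 groups alone, and the use of all alternatives on the Wnt list and on other named genes, were added after seeing the data. Promoter windows are from RefSeq on GRCm38.p6, and exon lengths from GENCODE M21.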

Additional observations from a re-analysis of the deposited data

Results flagged for a closer look

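For 5 of the 10 genes the difference between the groups that carry the Tcf7 deletion label and those that do not depended on the N1IC label, by the interaction in edgeR with Benjamini-Hochberg adjustment. The interaction was called for 27.4% of all tested genes. With 10 genes the count of 5 is not read as more than that share. In Tcf7 the interaction was 10.32 on the log2 scale (adjusted p = 9.07e-05), from a change of 6.78 between NICD_TCFKO and NICD_TCFWT and of -3.55 between NOTCHWT_TCFKO and NOTCHWT_TCFWT. In Tcf7l1 it was -3.31 (adjusted p = 0.00262), from changes of -1.45 and 1.86 in these comparisons. In Tle1 it was 1.17 (adjusted p = 0.00623), from 0.27 and -0.89, and in Tle3 0.94 (adjusted p = 0.00708), from 0.91 and -0.03. In Ctnnb1 it was 0.40 (adjusted p = 0.0294), from 0.08 and -0.32, and this was the only one of the 5 lost without some single library. The labels of both factors were contradicted by Tcf7 itself and by Dtx1, so these are differences between libraries so labelled.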

How the results depend on the processing

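Of the called fold changes of the 10 genes, 140 of their values in other fits kept the call and 4 lost it, and with a library left out 224 kept it and 28 lost it; none turned. Tcf7 and Tle3 kept every call. DESeq2 called 6 of the 10 genes in NICD_TCFKO over NICD_TCFWT, 5 in NICD_TCFKO over NOTCHWT_TCFWT and 2 in NOTCHWT_TCFKO over NICD_TCFWT. Over all genes DESeq2 called 3186, 2025 and 1655 in these, against 1986, 1010 and 460 in edgeR. Fits of the groups compared alone called 1238 genes, against 2942, in NICD_TCFKO over NOTCHWT_TCFKO and 538 in NICD_TCFKO over NOTCHWT_TCFWT; the interaction allows no such fit. With a library left out, counts over all genes ran from 917 to 2688, 1610 to 3302, 368 to 1285, 2024 to 3644, 2201 to 3847 and 161 to 2065 in the comparisons in the order of the report, and from 3545 to 4660 in the interaction; counts of the 10 genes ran from 2 to 3, 2 to 5, 3 to 5, 2 to 3, 3 to 4 and 0 to 1, and from 4 to 5. The count of 2 came without NICD_TCFKO 2 or 3 or NOTCHWT_TCFKO 1, the 5 of the third without NICD_TCFKO 1, and the 0 when any 1 library of NICD_TCFWT, NOTCHWT_TCFKO 1 or 2, or NOTCHWT_TCFWT 1 was left out. The cause was not tested.

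Outside NICD_TCFKO and NICD_TCFWT the replicate numbers did not meet the rule for pairing, and for these 2 groups they met it narrowly. Over all groups 7 of 18 same-number pairs had r over 0.1 (range -0.40 to 0.45). Only 3 of the 12 libraries had their highest r with their own number, and 0 had it in every other group. With a replicate block over all 12 libraries NOTCHWT_TCFKO over NICD_TCFWT called 0 of the 10 genes and 291 of all genes, Tle1 also lost its call in NICD_TCFKO over NOTCHWT_TCFKO (adjusted p = 0.0618), and Tcf7l1 gained those of NICD_TCFKO over NICD_TCFWT and NOTCHWT_TCFKO (0.0282 and 0.0388, edgeR adjusted p). With the block in NICD_TCFKO and NICD_TCFWT alone, Tcf7 and Tle3 were the 2 called of the 10 (edgeR adjusted p = 0.0169 and 0.0299), as without it.

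Only uncalled fold changes turned. The interaction of Lef1 was -0.039 in DESeq2, -0.0059 in limma-voom and -0.68 with the block. With a library left out, log2 fold changes ran from -0.15 to 0.091 for Tcf7l2 in NICD_TCFKO over NICD_TCFWT, from -0.030 to 0.078 for Tle4 and -0.49 to 0.082 for Hes1 in NICD_TCFKO over NOTCHWT_TCFWT, and from -0.0032 to 0.13 for Tle3 in NICD_TCFWT over NOTCHWT_TCFWT. In NOTCHWT_TCFKO over NOTCHWT_TCFWT they ran from -0.27 to 0.065 for Tcf7l2, -0.55 to 0.44 for Axin2, -0.48 to 0.21 for Tle2, -0.090 to 0.046 for Tle3 and -0.086 to 0.033 for Tle4. In NOTCHWT_TCFKO over NICD_TCFWT they ran from -1.38 to 1.56 for Lef1, -0.39 to 0.061 for Tcf7l1 and -0.016 to 0.33 for Tcf7l2, and in the interaction from -3.94 to 2.27 for Lef1 and -0.086 to 0.25 for Tcf7l2. RLE scaling turned none. Depth limits Lef1 most, with 0, 0 and 6 counts in NOTCHWT_TCFWT.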
